A study of Mus musculus with 2 samples.

Results

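Plvap-high capillary endothelial cells that were not cycling numbered 606 among the 9012 barcodes of 2 lung libraries, 251 in the mutant and 355 in the control library. They were chosen by raw counts of unique molecular identifiers (UMIs), each of which stands for 1 captured RNA molecule. A cell had at least 500 genes and under 10% mitochondrial UMIs, at least 8 UMIs summed over the endothelial genes Pecam1, Cdh5, Cldn5, Egfl7, Ramp2 and Esam, and at most 2 over Epcam, Col1a2 and Ptprc. It also had at least 4 UMIs over Plvap, Gpihbp1 and Aplnr, and no fewer than over Car4, Ednrb, Fibin and Apln. At most 2 UMIs over the arterial and venous genes Gja5, Bmx, Vwf and Slc6a2 and at most 1 over the proliferation genes Mki67, Top2a and Birc5 were allowed.

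The libraries came from mouse lungs at postnatal day 10, when alveoli and their capillaries are still being built. The mutant is labelled with Nkx2-1, a homeobox gene of the lung epithelium, together with Aqp5, a water channel gene of alveolar type 1 cells, and the control with Nkx2-1 alone. The labels name neither the alleles nor the number, sex or strain of the animals, and each group was 1 library of FACS-sorted epithelial, immune, endothelial and mesenchymal cells on the 10x Chromium 3′ platform. Values therefore describe these 2 libraries: no p-value can be given, and intervals are exact 95% intervals that cover counting error only.

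Pulmonary capillaries hold a pair of endothelial states. General capillary cells carry Plvap, whose protein forms the diaphragms of fenestrae and caveolae, Gpihbp1, which holds lipoprotein lipase at the vessel wall, and Aplnr, the receptor of apelin, and they are known as the progenitor state that divides. Aerocytes, marked by Car4, Ednrb and Apln, are the thin cells of the gas exchange surface, and the epithelium signals to both through Vegfa.

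Mutant cells were somewhat deeper than control cells. The 251 mutant cells held 1439063 UMIs with a median of 5190 UMIs and 2246 genes per cell, and the 355 control cells held 1675920 UMIs with a median of 4280 UMIs and 1887 genes. Median mitochondrial shares were 2.58% in the mutant and 3.12% in the control cells, and ribosomal protein genes took 17.9% of the mutant and 18.9% of the control UMIs. The libraries shared 27 barcode sequences, none of them between Plvap-high cells of one library and Plvap-high cells of the other. Nkx2-1 had 21.6 CPM, UMIs scaled to 1e+06 per class, in epithelial cells of the mutant and 350.3 CPM in those of the control library. In Plvap-high cells Nkx2-1 had 9 UMIs in the mutant and 37 UMIs in the control. Aqp5 had 225 CPM in mutant and 636 CPM in control epithelial cells, and 11 UMIs in mutant and 115 UMIs in control Plvap-high cells. Which exons were deleted is not in the labels, and tags at the 3′ end need not report a deletion.

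The cells carried the endothelial genes that chose them. Most marker genes of other lineages were low, with exceptions in some barcodes. The epithelial gene Sftpc was a further exception, with a UMI in all 355 control cells and in 141 of 251 mutant cells. Gpihbp1, which lies on chromosome 15 from 75596628 to 75599481 of mm10, was the most abundant of the 3 selecting genes, with a median of 6 UMIs per cell in both libraries and at least 1 UMI in 98.8% of mutant and 97.2% of control cells. Plvap, on chromosome 8 from 71497765 to 71511752, was seen in 85.7% of mutant and 94.4% of control cells, with medians of 2 UMIs in the mutant and 3 UMIs in the control. Aplnr, on chromosome 2 from 85136225 to 85139923, was seen in 74.9% of mutant and 67.0% of control cells. All 3 genes were present together in 164 of 251 mutant cells (65.3%) and 219 of 355 control cells (61.7%). These 3 genes chose the cells, so the values describe the choice.

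Summed over the class, Plvap had 528 CPM in the mutant and 898 CPM in the control, Gpihbp1 had 1305 CPM in the mutant and 1445 CPM in the control, and Aplnr had 287 CPM in the mutant and 320 CPM in the control. At the lower edge of the rule, 13 mutant and 19 control cells had exactly 4 UMIs over the 3 genes, and 9 mutant and 16 control cells met every other criterion with 3. The lymphatic regulator gene Prox1 had 1 UMI in mutant and 4 UMIs in control cells, and the lymphatic gene Mmrn1 had 1 UMI in mutant and 9 UMIs in control cells. Lyve1, which is also used as a lymphatic marker, had UMIs in 123 mutant and 221 control cells and is an exception to the low counts of that list.

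Some barcodes carried many UMIs of another cell type. With at least 10 UMIs of lymphatic, immune, red cell and platelet, epithelial or mesenchymal genes, or at least 50 UMIs of Sftpc, Sftpb, Sftpa1 and Scgb1a1, 18 mutant and 20 control cells were set down as mixed, a definition made after their counts were seen. They were deeper than the rest, with a median of 7722 UMIs in the mutant and 6924 UMIs in the control, against 5091 UMIs in the other mutant and 4242 UMIs in the other control cells. In the mutant, 8 of them carried immune and 8 epithelial genes. In the control, 14 carried epithelial genes and 2 carried lymphatic ones. Scrublet, a doublet caller, marked 5 mutant and 8 control Plvap-high cells, and all of those were among the mixed ones. Mixed cells were kept in the values below, and values without them are given where they differ.

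**Figure D1:**
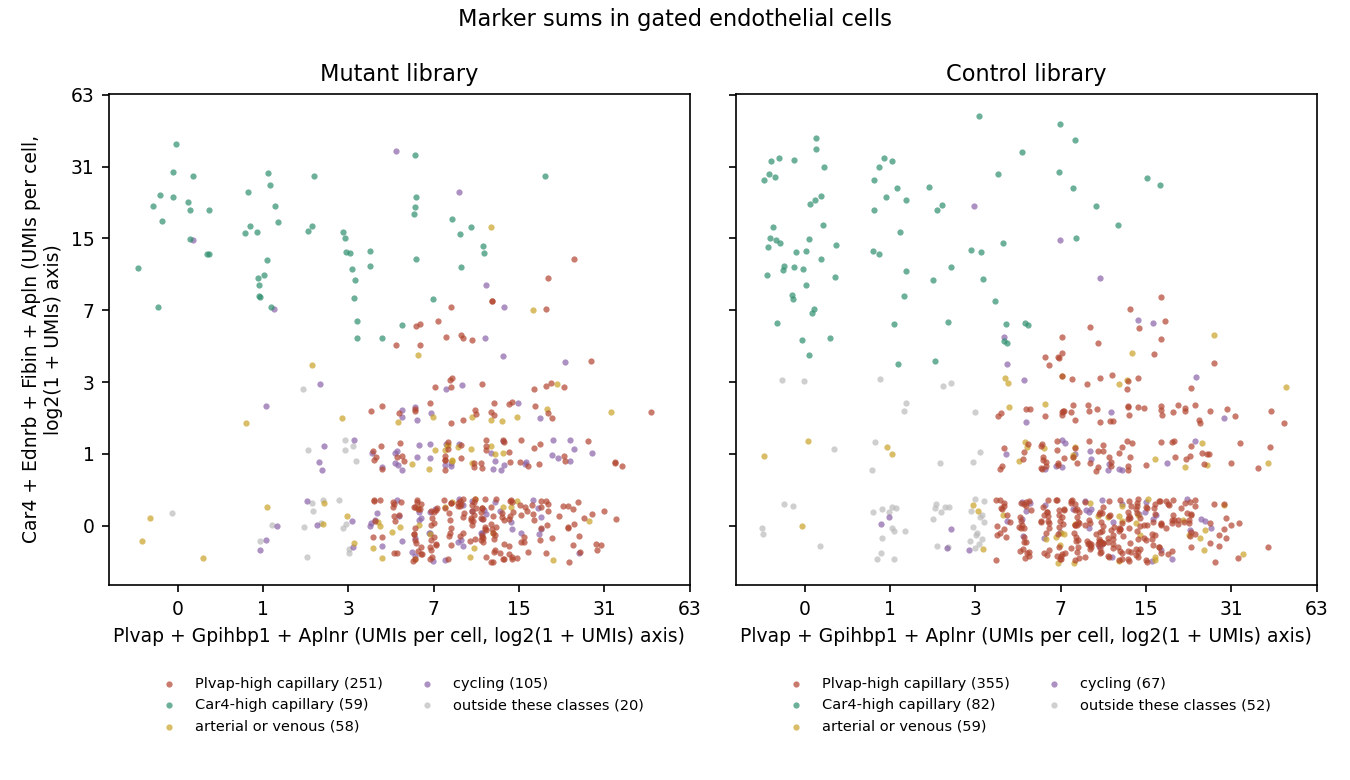
Each point is 1 gated endothelial cell, with the mutant library on the left and the control on the right. The x axis gives UMIs summed over Plvap, Gpihbp1 and Aplnr and the y axis UMIs summed over Car4, Ednrb, Fibin and Apln, both as log2(1 + UMIs) with a small random shift. The 251 mutant and 355 control Plvap-high cells lie low and to the right, and the 59 mutant and 82 control Car4-high cells lie high and mostly to the left, with few cells between.

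Plvap-high cells made up most of the capillary endothelium in both libraries. They were 251 of 493 gated endothelial cells in the mutant (50.9%, 46.4 to 55.4) and 355 of 615 in the control (57.7%, 53.7 to 61.7). Among endothelial cells that were not cycling the shares were 64.7% in the mutant (59.7 to 69.4) and 64.8% in the control (60.6 to 68.8). Car4-high cells were 15.2% of the non-cycling cells in the mutant and 14.96% in the control. A FACS sort and the depth of each library precede these shares, and their part was not tested. With every cell thinned to 2000 UMIs before the rule was applied, Plvap-high cells were 31.8% of mutant and 45.1% of control endothelial cells.

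Most cycling endothelial cells met the same criteria on the capillary genes. Of 105 cycling cells in the mutant, 88 met the criteria on Plvap, Gpihbp1 and Aplnr and 4 met those on Car4, Ednrb, Fibin and Apln. Of 67 cycling cells in the control, 59 met the criteria on Plvap, Gpihbp1 and Aplnr and 3 met those on Car4, Ednrb, Fibin and Apln. Cycling cells were thus 26.0% of all cells with the Plvap criteria in the mutant (21.4 to 30.97) and 14.3% in the control (11.03 to 17.995). After thinning to 2000 UMIs these shares were 13.3% in the mutant (8.73 to 19.2) and 6.83% in the control (4.22 to 10.3), so the mutant share stayed higher while both were smaller.

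S phase genes, which serve DNA replication, were also counted in the non-cycling cells. Of 25 with at least 30 UMIs, 19 were higher and 6 lower in the mutant, where 4597 of all 8137 genes were higher and 3540 lower. After thinning to 1500 UMIs, 19.5% of mutant and 13.5% of control Plvap-high cells held at least 3 UMIs of the 34 listed S phase genes, against 5.09% of mutant and 4.88% of control Car4-high cells. Cells with 1 UMI of Mki67, Top2a or Birc5, just inside the rule, were 27 in the mutant and 15 in the control. The 11 genes of the G2 and M phases with enough counts were 6 higher and 5 lower in the mutant.

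Set against Car4-high cells, Plvap-high cells differed in many genes beyond the selecting ones. Because the rule that placed them used counts of these same cells, this contrast is a description. Of 8715 genes that reached 30 UMIs in these classes, 348 (3.99%) were at least 2-fold higher in Plvap-high cells in both libraries and 251 (2.88%) at least 2-fold lower. Of 13 other genes known from general capillary cells, 9 were higher in Plvap-high cells in both libraries, 7 of them at least 2-fold. Of 14 other aerocyte genes, 13 were lower in Plvap-high cells in both libraries, 12 of them at least 2-fold.

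The genes highest in Plvap-high cells were of several kinds. Wif1, a secreted inhibitor of Wnt ligands, was 4.94-fold higher than in Car4-high cells in the mutant and 8.66-fold in the control. Gja4, a connexin of vascular gap junctions, was 4.72-fold higher in the mutant and 11.6-fold in the control. Hey1, a transcription factor of the Notch pathway, was 3.497-fold higher in the mutant and 10.0-fold in the control. Both Gja4 and Hey1 are also used as arterial genes, and arterial or venous cells held 585 CPM of Gja4 in the mutant and 602 CPM in the control, above the Plvap-high cells. Cxcl12, a chemokine, was 3.23-fold higher in the mutant and 14.4-fold in the control. Itga6, a laminin-binding integrin subunit, was 3.54-fold higher in the mutant and 5.01-fold in the control. Prss23, Cadm1, Tmem252, Hmcn1, Sema3g, Fbln2, Dnah8, Sparcl1 and Slc6a6 completed the 15 genes with the largest contrast, together with Cldn18, an epithelial claudin that lay mostly in mixed cells.

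Other genes were far lower in Plvap-high than in Car4-high cells. Tbx2, a T-box transcription factor, was 19.4-fold lower in Plvap-high than in Car4-high cells in the mutant and 19.0-fold lower in the control. Chst1, which sulfates carbohydrates, was 15.5-fold lower in the mutant and 37.3-fold lower in the control. Igfbp7, a secreted binding protein, had the highest level of this set and was 8.25-fold lower in the mutant and 9.07-fold lower in the control. Lmntd1, Tbx3os1, Itgb5, AW112010, Chst2 and Sirpa were also among the genes lowest in this contrast. Tbx3os1 is named as an opposite-strand transcript, and its reads cannot be told apart from those of its partner where the counting strand is not known.

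Aerocyte genes outside the rule were higher in Plvap-high cells with more UMIs of the rule's Car4 genes. The 16 listed ones summed to 3717 CPM in the 167 mutant cells with no UMI of Car4, Ednrb, Fibin or Apln, 4746 CPM in the 40 with 1 UMI and 6510 CPM in the 44 with more. Control cells gave 3888 CPM in the 238 with no UMI, 4257 CPM in the 55 with 1 UMI and 6145 CPM in the 62 with more. Car4-high cells held 17268 CPM in the mutant and 20598 CPM in the control, so even the Plvap-high cells with the most Car4 UMIs stayed far below them. The 14 listed general capillary genes had no such order, with 7212, 7146 and 7279 CPM in the mutant and 5872, 6490 and 5606 CPM in the control. The median depth of these 3 sets of cells also differed, from 4955 to 6305 UMIs in the mutant and from 4135 to 4988 UMIs in the control.

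Genes outside the rule also placed the cells near each other. Mixed cells and the selecting genes were left out, and each cell's 10 nearest neighbours were found within its library from 1000 variable genes. The pool held Plvap-high, Car4-high and arterial or venous cells. It did not hold the non-cycling endothelial cells outside these classes, which numbered 20 in the mutant and 52 in the control library. On average, 93.9% of the neighbours of a Plvap-high cell in the mutant and 96.8% in the control were themselves Plvap-high, where such cells were 67.5% of the mutant and 71.4% of the control pool. Car4-high cells were 5.02% of those neighbours in the mutant and 1.49% in the control. Conversely, Plvap-high cells were 20.4% of the neighbours of a Car4-high cell in the mutant and 10.5% in the control. The classes were compared within libraries, and whether the mutant and control shares differ beyond the spread between animals was not testable with 1 library each.

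Between the libraries, most genes of Plvap-high cells were close. Of 8137 genes that reached 30 UMIs in the 2 libraries together, 76.0% lay within 1.5-fold and the median log2 ratio of mutant over control was 0.06. In the mutant 515 genes (6.33%) were at least 2-fold higher and 144 genes (1.77%) at least 2-fold lower. Without mixed cells the counts were 487 higher and 131 lower of 7747. Among genes with at least 100 UMIs the shares were 4.14% higher and 0.941% lower. Of the 659 genes past 2-fold either way (8.1%), 155 differed in the same direction, and by at least 0.5 of the size on the log2 scale, in epithelial, mesenchymal and immune cells alike. Among these genes were Hist1h1e, Clu and Itgb1. The rule asked only for any UMI in each of these other classes, so some of the calls can rest on few UMIs or on the floor. Gm42418, a locus that overlaps ribosomal RNA sequence, missed that rule but also differed in every class, with 0.145% of Plvap-high UMIs in the mutant and 0.0149% in the control, and 0.0829% of mesenchymal UMIs in the mutant and 0.0111% in the control.

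**Figure D2:**
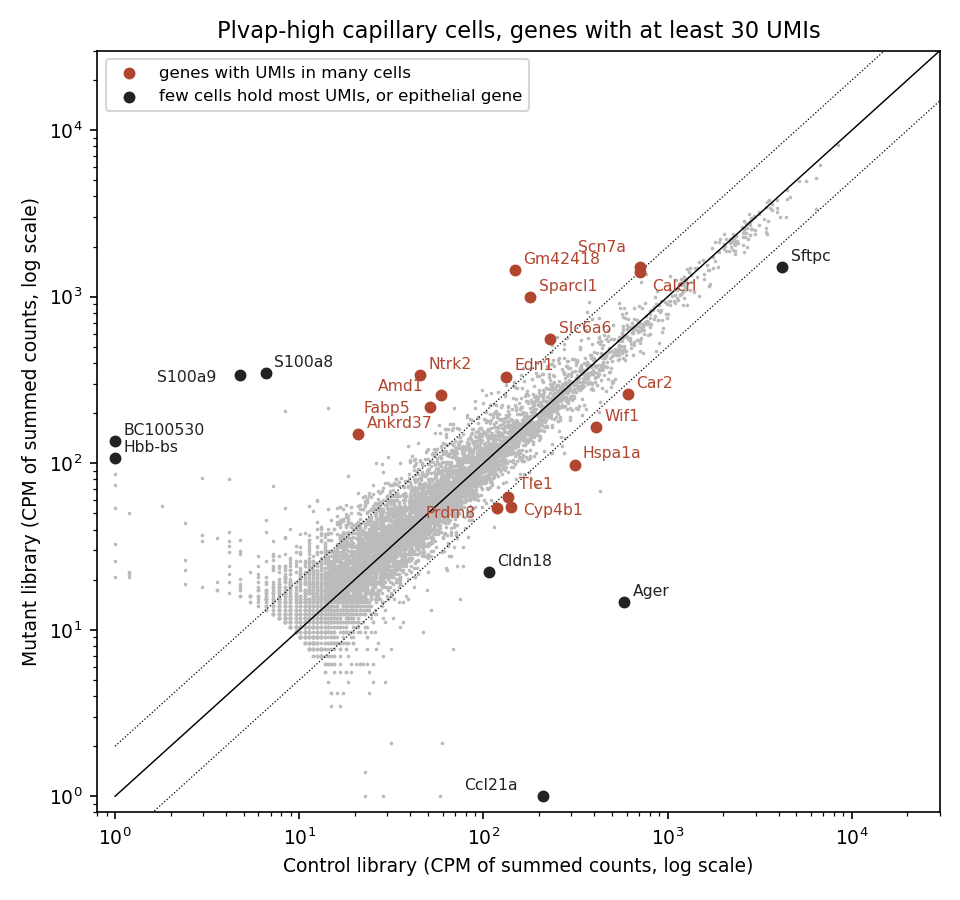
Each point is a gene that reached 30 UMIs in Plvap-high cells. The x axis gives CPM of summed counts in the control and the y axis CPM in the mutant, both on log scales and with values under 1 CPM drawn at 1. The solid line marks equal levels and the dotted lines 2-fold differences. Red genes such as Ntrk2 (340 CPM in the mutant and 45.3 CPM in the control) had UMIs in many cells, while black genes such as S100a8 had most of them in few cells or are epithelial.

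With Gm42418 and the genes that differ in every class set apart, a neurotrophin receptor, a matrix glycoprotein and metabolic genes had the largest ratios that ran through many cells. Ntrk2, which encodes the BDNF receptor TrkB, had 340 CPM (489 UMIs) in the mutant and 45.3 CPM (76 UMIs) in the control, 7.49-fold higher (5.87 to 9.67). UMIs of Ntrk2 lay in 176 of 251 mutant cells and 55 of 355 control cells. After thinning to 1500 UMIs, 34.3% of mutant (28.4 to 40.5) and 4.22% of control (2.38 to 6.87) Plvap-high cells had an Ntrk2 UMI, where epithelial cells had 0.0503% in the mutant and none of 774 in the control, which allows up to 0.388% when 3 counts of the total are taken as the limit. The gene was thus seen across the mutant class and in a small share of control cells.

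Sparcl1, a secreted relative of the matrix protein SPARC, had 991 CPM in the mutant and 180 CPM in the control, 5.52-fold higher (4.87 to 6.27). After thinning, 66.1% of mutant and 20.6% of control Plvap-high cells held a Sparcl1 UMI, against 0.352% of mutant and 0.517% of control epithelial cells. Mesenchymal cells, which express it too, had shares of 50.5% in the mutant and 40.5% in the control. Both Plvap-high shares of Sparcl1 lay above the epithelial ones.

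Ankrd37, an ankyrin repeat gene known to respond to hypoxia, had 149 CPM in the mutant and 20.9 CPM in the control, 7.15-fold higher (4.99 to 10.5). Amd1, the enzyme that supplies decarboxylated S-adenosylmethionine for polyamine synthesis, had 256 CPM in the mutant and 58.5 CPM in the control, 4.37-fold higher (3.49 to 5.52). Fabp5, a fatty acid binding protein, had 218 CPM in the mutant and 51.3 CPM in the control, 4.24-fold higher (3.33 to 5.45). Each of the 3 had UMIs in more than 100 mutant cells and fewer than 70 control cells. After thinning, 17.9% of mutant and 5.35% of control Plvap-high cells had a Fabp5 UMI. Epithelial cells had higher shares of Fabp5, 53.1% in the mutant and 52.1% in the control, and the part of free RNA in the Plvap-high share was not tested.

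Slc6a6, the taurine transporter, was among the genes highest in Plvap-high over Car4-high cells and also differed between libraries, with 558 CPM in the mutant and 230 CPM in the control (2.42-fold, 2.14 to 2.74). Its thinned shares were 46.6% of mutant and 24.5% of control cells. In mesenchymal cells the shares of Slc6a6 were 16.9% in the mutant and 8.35% in the control.

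Genes lower in the mutant included a Wnt inhibitor and carbonic anhydrase 2. Wif1 had 164 CPM (236 UMIs) in the mutant and 408 CPM (684 UMIs) in the control, a ratio of 0.402 (0.345 to 0.467). The thinned share of Plvap-high cells with a Wif1 UMI was 21.1% in the mutant (16.2 to 26.7), and 142 of 355 control cells had one (34.9% to 45.3%). Mesenchymal cells went the other way for Wif1, with 15.1% in the mutant and 6.58% in the control. Car2 had 261 CPM in the mutant and 609 CPM in the control, a ratio of 0.429 (0.380 to 0.484). The share of cells with a Car2 UMI after thinning was 30.7% in the mutant and 53.8% in the control.

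A few further genes stood lower in many cells. Cyp4b1, a cytochrome P450 that Car4-high cells hold at higher levels, had 54.9 CPM in the mutant and 141 CPM in the control. Tle1, a corepressor, had 62.5 CPM in the mutant and 137 CPM in the control. Prdm8, a PR-domain transcriptional repressor, had 54.2 CPM in the mutant and 118 CPM in the control. Their UMIs were spread, with no mutant cell holding more than 5 of any of these and no control cell more than 6. Hspa1a, an inducible heat shock gene, had 98.0 CPM in the mutant and 312 CPM in the control, and was also seen in fewer mutant than control cells of the mesenchyme (6.13% in the mutant and 21.6% in the control after thinning). Hspa1a and Hspa1b are near-identical copies whose reads may be split between them.

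**Figure D3:**
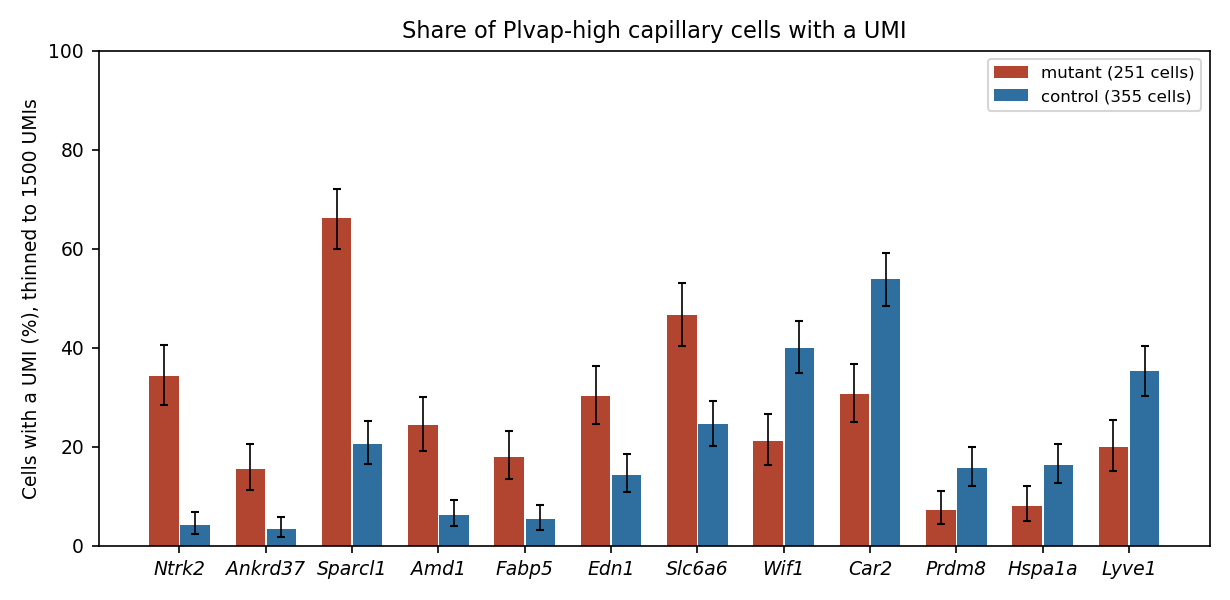
Bars give the percentage of Plvap-high cells with at least 1 UMI of each gene after every cell was thinned to 1500 UMIs, for 251 mutant cells (red, left) and 355 control cells (blue, right). Error bars are exact 95% Clopper-Pearson intervals, which cover counting error only. The mutant bars of Ntrk2 (34.3%) and Sparcl1 (66.1%) stand above the control bars, and those of Wif1 (21.1%) and Car2 (30.7%) below.

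Several of the largest ratios rested on 1 or 2 mixed cells or on epithelial RNA. S100a8 and S100a9, calprotectin genes of neutrophils, had 346 CPM and 337 CPM in the mutant and 6.56 CPM and 4.77 CPM in the control, but 1 mutant cell held 406 of 498 S100a8 UMIs and 413 of 485 S100a9 UMIs. Without mixed cells S100a8 had 7 UMIs in the mutant and 10 UMIs in the control. BC100530 had 196 UMIs in the mutant, 176 of them in 1 cell, and 1 UMI in the control. The red cell gene Hbb-bs had 154 UMIs in the mutant, 143 of them in 1 cell, and 0 UMIs in the control. Ccl21a, a lymphatic chemokine, had 0 UMIs in the mutant and 353 UMIs in the control, all in 2 cells. These ratios therefore describe single barcodes. The 7 immune genes with enough counts were 6 higher and 1 lower in the mutant, and all 3 red cell genes were higher. Of 5 lymphatic genes 1 was higher and 4 lower, and of 8 pericyte and mesenchymal genes 2 were higher and 6 lower. The listed immune genes summed to 1065 CPM in the mutant and 297 CPM in the control. With Lyz2 left out, 1275 of 1304 immune UMIs in the mutant lay in the 8 cells mixed by immune genes. In the control 87 of 161 lay in 2 such cells. Lyz2 itself had 14 UMIs in the mutant and 119 UMIs in the control without mixed cells, so the higher mutant sum describes mixed cells. The lymphatic list summed to 240 CPM in the mutant and 636 CPM in the control.

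Epithelial genes in Plvap-high cells differed between the libraries. The 25 listed epithelial genes summed to 2356 CPM in mutant and 6087 CPM in control Plvap-high cells. Of 21 with enough counts 6 were at least 2-fold higher and 11 at least 2-fold lower in the mutant, where 6.33% of all genes were higher and 1.77% lower. Without mixed cells 12 had enough counts, 3 of them at least 2-fold higher and 7 at least 2-fold lower, and Sftpc had 190 UMIs in the mutant and 3047 UMIs in the control, against 2165 UMIs in the mutant and 7017 UMIs in the control with them. Sftpc, the surfactant protein C gene of alveolar type 2 cells, had a UMI in all 355 control cells and in 141 mutant cells. After thinning, 93.5% of control Plvap-high cells had one, close to the 92.6% of mesenchymal and 92.3% of immune control cells, while the mutant shares were 20.3% in Plvap-high, 19.9% in mesenchymal and 22.2% in immune cells. Within each library the shares were alike in these classes, so they are not taken as a trait of Plvap-high cells. The part of free RNA in them was not tested. The alveolar type 1 gene Ager had 14.6 CPM in the mutant and 581 CPM in the control, and without mixed cells 9.35 CPM in the mutant and 87.1 CPM in the control. On the other side Krt8, Krt18 and Krt19, keratin genes of simple epithelia, were 5.93-fold, 5.97-fold and 4.71-fold higher in the mutant at 28.5 to 59.1 CPM. Krt18 also passed the rule for genes that differ in every class.

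Of 15 Vegf genes with enough counts 7 were higher and 8 lower in the mutant, and the receptors did not all differ in one direction. Kdr, the main signalling receptor for Vegfa, had 419 CPM in the mutant and 255 CPM in the control (1.65-fold, 1.45 to 1.87). Flt1, which binds Vegfa as a decoy, had 382 CPM in the mutant and 222 CPM in the control (1.72-fold, 1.51 to 1.97). Nrp1, the co-receptor, had 566 CPM in the mutant and 425 CPM in the control (1.33-fold, 1.20 to 1.48). Vegfa itself had 66.7 CPM in the mutant and 53.7 CPM in the control, a ratio of 1.24 whose interval of 0.922 to 1.68 includes 1, and of 1.77 (1.25 to 2.53) without mixed cells. Flt4, the receptor of Vegfc, was lower, with 23.6 CPM in the mutant and 41.8 CPM in the control (0.566, 0.364 to 0.864). None of these reached 2-fold.

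Of 14 tip cell genes with enough counts, 6 were higher and 8 lower in the mutant, with a median log2 ratio of -0.05. Without mixed cells 8 were higher and 6 lower. The 19 listed genes summed to 3338 CPM in the mutant and 2304 CPM in the control. With mixed cells kept, 3 of the 14 were at least 2-fold lower and none at least 2-fold higher. Over all genes 1.77% were lower and 6.33% higher by that much. Esm1, a proteoglycan gene induced by Vegf, had 15.3 CPM in the mutant and 74.6 CPM in the control (0.205, 0.124 to 0.324), with 38 of its control UMIs in 1 cell. Angpt2, the context-dependent ligand of the receptor Tek, had 6.25 CPM in the mutant and 20.3 CPM in the control (0.308, 0.130 to 0.656). Cxcr4, the receptor of Cxcl12, had 6.95 CPM in the mutant and 14.3 CPM in the control, and its interval of 0.207 to 1.05 includes 1. Their UMIs lay in few cells, with Esm1 in 10 mutant and 35 control cells and Angpt2 in 9 mutant and 29 control cells.

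Vasoactive peptides and their receptors differed gene by gene. Edn1, the precursor of the constrictor peptide endothelin 1, had 331 CPM in the mutant and 133 CPM in the control (2.49-fold, 2.12 to 2.93), and its UMIs lay in 131 mutant and 101 control cells. Calcrl, the receptor that binds adrenomedullin with the partner Ramp2, had 1406 CPM in the mutant and 708 CPM in the control (1.99-fold, 1.85 to 2.13). Ramp2, part of the rule, had 1998 CPM in the mutant and 2688 CPM in the control. The epithelial, mesenchymal and immune cells were chosen to have few UMIs of the endothelial genes, Ramp2 among them. Its direction in those classes therefore cannot be compared. Tek, the angiopoietin receptor, had 207 CPM in the mutant and 235 CPM in the control. Of 11 genes of this list with enough counts, 2 were at least 2-fold higher, Edn1 and Ednrb, and 1 at least 2-fold lower, Angpt2. Over all genes 6.33% were higher and 1.77% lower by that much. Ednrb is a gene of the rule and was 1.87-fold higher without mixed cells, while Calcrl was then 2.01-fold higher.

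Of 12 Notch genes 8 were lower in the mutant, where 3540 of all 8137 genes were, with a median log2 ratio of -0.18. Dll4, the endothelial ligand, had 72.3 CPM in the mutant and 119 CPM in the control (0.606, 0.473 to 0.771). Its targets Hey1, with 170 CPM in the mutant and 236 CPM in the control, and Hes1, with 592 CPM in the mutant and 782 CPM in the control, were lower as well, though Hes1 differed likewise in every class. Jag2, a further ligand, was 2.60-fold higher at 20.2 CPM in the mutant and 7.76 CPM in the control. The receptors Notch1 and Notch4 had ratios of 1.08 and 1.09 with intervals that include 1.

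In the Bmp and Tgfb pathway 2 of 19 genes were at least 2-fold higher and none at least 2-fold lower, where 6.33% of all genes were higher and 1.77% lower by that much. Tgfbr2, the type II Tgfb receptor, had 173 CPM in the mutant and 68.6 CPM in the control (2.52-fold, 2.01 to 3.17). Bmp2, a ligand, had 55.6 CPM in the mutant and 25.1 CPM in the control (2.22-fold, 1.51 to 3.30). Smad7, the inhibitory Smad, had 204 CPM in the mutant and 104 CPM in the control (1.96-fold, 1.62 to 2.38), and Bmpr2, the type II Bmp receptor, had 402 CPM in the mutant and 258 CPM in the control (1.56-fold). The ligand Tgfb1 was lower, with 105 CPM in the mutant and 163 CPM in the control (0.644, 0.524 to 0.789). None of 11 Wnt pathway genes with enough counts passed 2-fold, with 4 higher and 7 lower in the mutant. Of 25 secreted signals with enough counts, 3 were at least 2-fold higher (Igf2, Kitl and Edn1) and 2 at least 2-fold lower (Esm1 and Cyr61). Without mixed cells Cyr61 had a ratio of 0.7199 (0.494 to 1.04) and was within 2-fold. Igf2 rested on 31 UMIs in the mutant and 2 UMIs in the control.

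Of 21 basement membrane and integrin genes 16 were higher in the mutant, 4 of them at least 2-fold, and none was at least 2-fold lower. Over all genes 6.33% were higher and 1.77% lower by that much. The median log2 ratio of the list was 0.22, and 0.44 without mixed cells. Col4a1 and Col4a2, the chains of the main collagen IV network, had 1227 CPM and 1364 CPM in the mutant and 712 CPM and 761 CPM in the control, ratios of 1.72 (1.60 to 1.85) and 1.79 (1.67 to 1.93). Hspg2, the core protein of perlecan, had 75.05 CPM in the mutant and 45.4 CPM in the control. Itgb1, the common integrin beta chain, had 806 CPM in the mutant and 363 CPM in the control (2.22-fold) but differed in every class. Itga1, a collagen-binding integrin chain, had 91.7 CPM in the mutant and 44.2 CPM in the control (2.08-fold), and 1.89-fold without mixed cells. Col18a1 was 5.16-fold higher (2.23 to 13.9) on 31 mutant and 7 control UMIs. Sparc, the most abundant gene of the list, differed little, with 2502 CPM in the mutant and 2590 CPM in the control.

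Junction and identity genes of the endothelium stayed within 2-fold with 1 exception. Of 20 caveola, diaphragm and junction genes Jam2, a junctional adhesion molecule, was at least 2-fold higher, with 149 CPM in the mutant and 62.6 CPM in the control (2.38-fold, 1.88 to 3.04). Over all genes 6.33% were higher by that much. Cdh5, the cadherin of endothelial junctions and part of the rule, had 1339 CPM in the mutant and 1033 CPM in the control, and Cldn5, the claudin of the tight junction and also part of the rule, had 3018 CPM in the mutant and 4096 CPM in the control. Cav1, the caveolar coat protein, had 1492 CPM in the mutant and 1320 CPM in the control. None of 19 endothelial identity genes passed 2-fold, with 10 higher and 9 lower.

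Of 13 general capillary genes outside the rule 9 were higher, where 4597 of all 8137 genes were, and their median log2 ratio was 0.27. The 14 other aerocyte genes were 8 higher and 6 lower in the mutant, with Chst1 and Kitl at least 2-fold higher and Cyp4b1 at least 2-fold lower. For this list and those that follow, the shares over all genes were 6.33% higher and 1.77% lower by at least 2-fold. Scn7a, a sodium channel subunit gene, was past 2-fold, with 1507 CPM in the mutant and 711 CPM in the control (2.12-fold, 1.97 to 2.28). Cxcl12 had 553 CPM in the mutant and 340 CPM in the control, in 163 mutant and 109 control cells. Lyve1, a hyaluronan receptor, went the other way with 194 CPM in the mutant and 343 CPM in the control, as did Hilpda, a lipid droplet protein, with 322 CPM in the mutant and 518 CPM in the control. Of the transcription factors, 21 of 33 were higher and 12 lower, a share close to that of all genes, with Mef2a and Nr2f2 at least 2-fold higher. Nr2f2, which is known for venous fate, had 48.0 CPM in the mutant and 18.5 CPM in the control (2.59-fold, 1.67 to 4.10), and was 3.88-fold higher without mixed cells. Foxf1, the forkhead factor of lung vessels, had 949 CPM in the mutant and 1085 CPM in the control. Of 13 arterial genes 4 were higher and 9 lower, and Fbln5, Mgp and Cxcr4 were at least 2-fold lower, though Fbln5 had a ratio of 0.536 without mixed cells and was then within 2-fold. Of 8 venous genes 5 were higher and 3 lower, with Nr2f2 and Car8 at least 2-fold higher.

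Lipid and metabolic genes gave single large differences and small medians. Of 12 lipid handling genes 6 were higher and 6 lower, and Fabp5 and Acsl3 were at least 2-fold higher (Acsl3 1.95-fold without mixed cells). Over all genes 6.33% were higher by that much. Lpl, the lipoprotein lipase that Gpihbp1 carries, had 62.5 CPM in the mutant and 44.2 CPM in the control (1.42-fold, 1.03 to 1.95), Cd36, the fatty acid transporter, had 570 CPM in the mutant and 583 CPM in the control, and Pltp, the phospholipid transfer protein, had 232 CPM in the mutant and 428 CPM in the control (0.542, 0.474 to 0.618). Of 20 glycolysis and hypoxia genes 14 were higher and 6 lower, with Ankrd37 and Bnip3 at least 2-fold higher and a median log2 ratio of 0.29. Ldha, lactate dehydrogenase, had 384 CPM in the mutant and 285 CPM in the control (1.35-fold).

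Of 20 cell cycle inhibitors and p53 targets 13 were higher and 7 lower in the mutant, 3 of them at least 2-fold higher and 1 at least 2-fold lower. Over all genes 6.33% were higher and 1.77% lower by that much. Cdkn1a, the p53 target p21, had 195 CPM in the mutant and 81.8 CPM in the control (2.39-fold, 1.94 to 2.95) in 128 mutant and 71 control cells. Cdkn1b, p27, was 2.37-fold higher at 42.4 CPM in the mutant and 17.9 CPM in the control and differed in every class. Trp53inp1 was 3.35-fold higher (1.45 to 8.66) at 15.98 CPM in the mutant and 4.77 CPM in the control. Cdkn2b, p15, had 6.95 CPM in the mutant and 28.6 CPM in the control, but without mixed cells 7.01 CPM in the mutant and 9.82 CPM in the control, so its difference lay in mixed cells. Mdm2, Bax and Ccng1, further p53 targets, had ratios of 1.17, 1.18 and 1.44. In the S phase list Atad2, Usp1, Hells and Ung were at least 2-fold higher in the mutant (Ung 1.98-fold without mixed cells), and the median log2 ratio was 0.36.

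Immediate early genes, which respond within minutes to stimulation or to tissue dissociation, were lower in the mutant. Of 21 with enough counts, 17 were lower and 4 higher, and the median log2 ratio was -0.49. The 23 listed genes summed to 4458 CPM in the mutant and 6296 CPM in the control. Jun had 653 CPM in the mutant and 949 CPM in the control, Egr1 had 79.9 CPM in the mutant and 150 CPM in the control, and Atf3 had 31.3 CPM in the mutant and 77.6 CPM in the control (0.403, 0.281 to 0.570). Jun, Egr1, Fos and Junb differed in the same direction in every class of the library. Car4-high cells gave the same list 5099 CPM in the mutant and 8020 CPM in the control. The handling of each lung before capture is not given, and its part was not tested.

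Of 23 interferon-stimulated genes 17 were lower, with a median log2 ratio of -0.16 and 1 gene, Irf7, at least 2-fold lower. For this list and those that follow, the shares over all genes were 6.33% higher and 1.77% lower by at least 2-fold. Ifitm2 had 896 CPM in the mutant and 1273 CPM in the control (0.704, 0.656 to 0.755) and Bst2 had 212 CPM in the mutant and 362 CPM in the control (0.585, 0.508 to 0.673), while Ifitm3 had 1169 CPM in the mutant and 1184 CPM in the control. Of 14 heat shock genes 6 were higher and 8 lower, with Hspa1a and Hspa1b at least 2-fold lower. Of 14 MHC genes 8 were higher and 6 lower, and the class II genes H2-Eb1 and H2-Ab1 were at least 2-fold higher through 1 mutant cell that held 38 of 41 H2-Eb1 UMIs, and neither was 2-fold higher without mixed cells. Of 13 haemostasis genes 6 were higher and 7 lower, and Cd59a was at least 2-fold lower. Of 10 adhesion and chemokine genes 4 were higher and 6 lower, with Cxcl2 and Lrg1 at least 2-fold higher, Cxcl2 through 1 mutant cell. Without mixed cells none of the 8 then tested passed 2-fold. Lrg1 was not among these 8, because its UMIs were then too few for it to count as tested. It still had 18 UMIs in the mutant and 0 UMIs in the control without mixed cells. Of 14 shear stress and vasoactive genes none passed 2-fold, with 10 higher and 4 lower. Klf2, a flow-responsive factor, had 1805 CPM in the mutant and 2331 CPM in the control, and Klf4, its relative, had 857 CPM in the mutant and 654 CPM in the control.

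**Figure D4:**
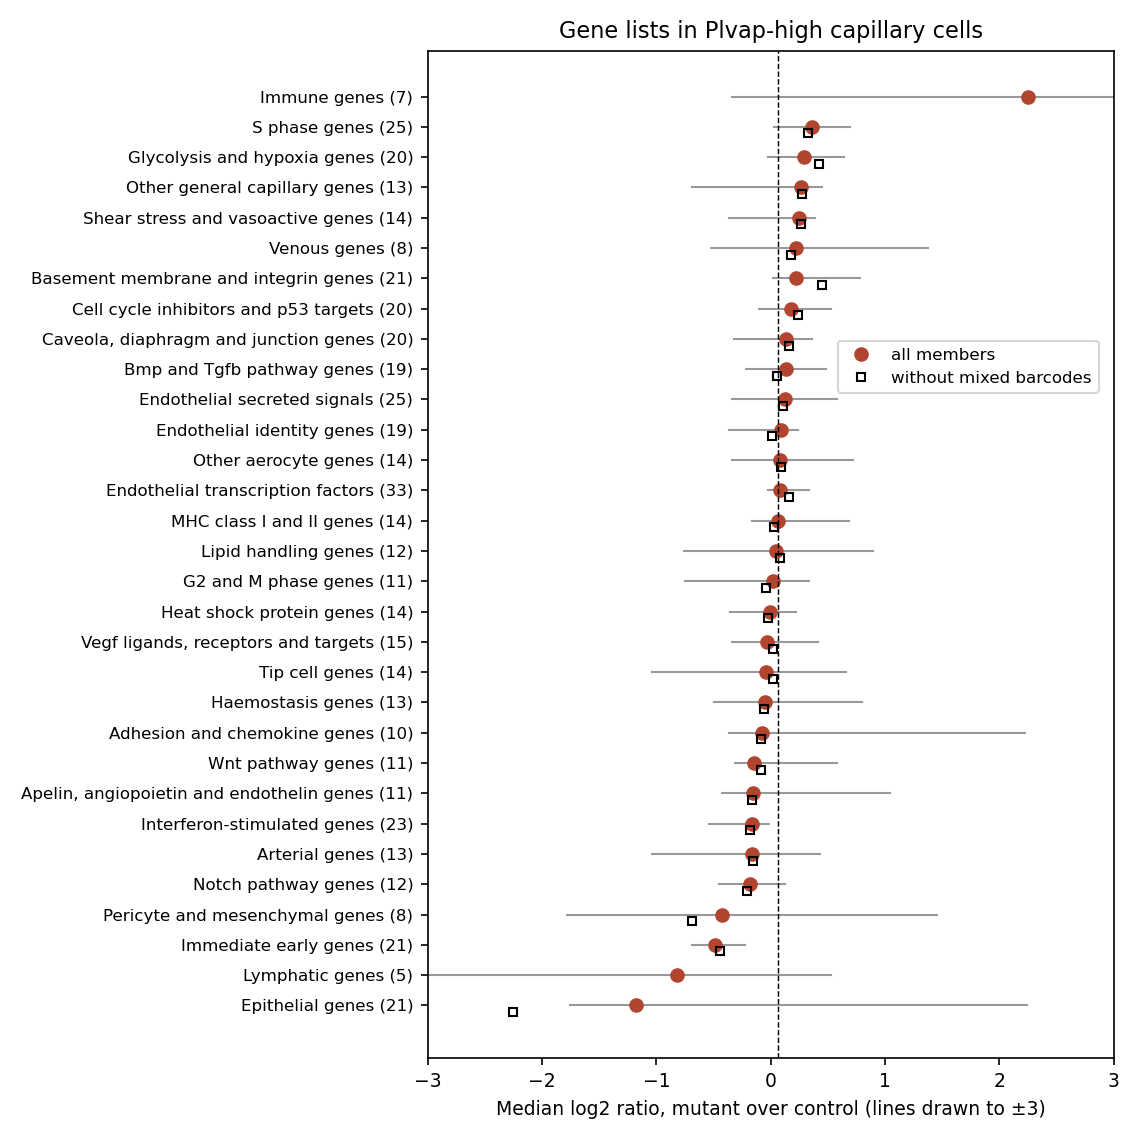
Each row is a gene list, with its number of genes of at least 30 UMIs in brackets, in Plvap-high cells. Red dots give the median log2 ratio of mutant over control, grey lines the binomial interval of that median over the listed genes, open squares the median without mixed cells and the dashed line the median of all 8137 genes (0.06). Immediate early genes (-0.49) lie lowest among the lists that are not markers of another cell type, and S phase genes (0.36) highest with mixed cells kept. Without them basement membrane and integrin genes (0.44) and glycolysis and hypoxia genes (0.42) lie above S phase genes (0.32).

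Set beside Car4-high cells of the same libraries, several of the largest differences went the same way and others did not clearly do so. In Car4-high cells Prdm8 had a ratio of 1.17 (0.509 to 2.70). Wif1 had a ratio of 0.704 (0.322 to 1.49) and Fabp5 of 1.63 (0.683 to 4.04) there, all with intervals that include 1. Ntrk2 had 128 CPM (50 UMIs) in mutant and 16.5 CPM (7 UMIs) in control Car4-high cells. Its ratio of 7.74 there had a wide interval (3.49 to 20.2), next to 7.49 in Plvap-high cells. Sparcl1 had 309 CPM (121 UMIs) in mutant and 28.3 CPM (12 UMIs) in control Car4-high cells, a ratio of 10.9 (6.03 to 21.7). Col4a1 and Col4a2 had 1422 CPM and 1649 CPM in mutant and 806 CPM and 912 CPM in control Car4-high cells. These levels rest on 59 mutant and 82 control cells, and both classes come from the same 2 libraries. Edn1 and Cxcl12 had larger ratios in Car4-high cells, from lower levels than in Plvap-high cells. Edn1 had 110 CPM (43 UMIs) in the mutant and 14.1 CPM (6 UMIs) in the control there, a ratio of 7.76 (3.29 to 22.3). Cxcl12 had 171 CPM in the mutant and 23.6 CPM in the control there. Kdr was close in Car4-high cells, with 1309 CPM in the mutant and 1206 CPM in the control. Whether any ratio differs between the classes was not tested.

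**Figure D5:**
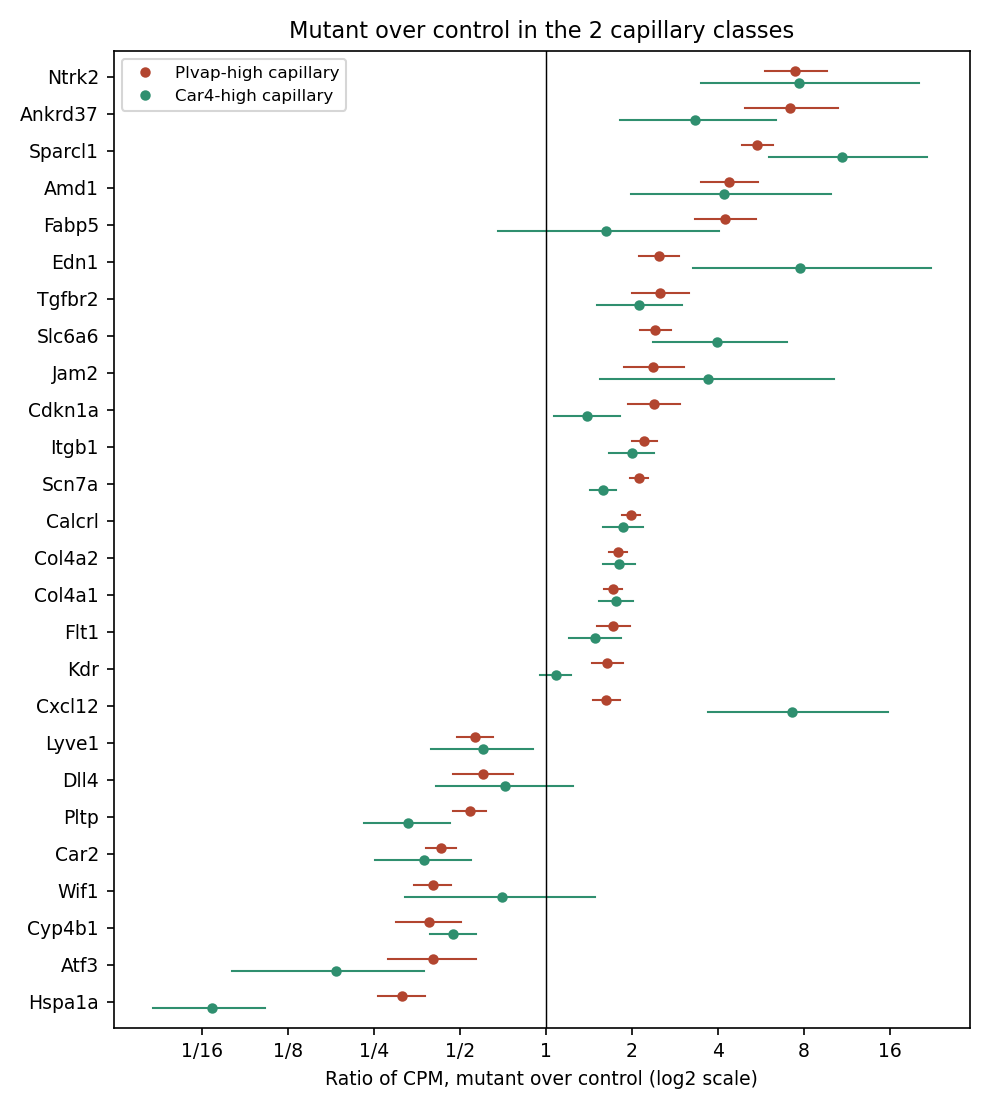
Points give the ratio of CPM, mutant over control, for named genes in Plvap-high cells (red, above) and Car4-high cells (green, below), on a log2 scale with exact 95% intervals for counting error. The vertical line marks equal levels. Ntrk2 (7.49 in Plvap-high cells) and Sparcl1 (5.52) lie right of it in both classes, and Car2 (0.429) and Hspa1a left of it in both.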

How the data were processed

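Single-cell RNA profiles of 1 mutant and 1 control library were used. Each deposited matrix lists, for 27998 genes, the whole-number UMI count of every barcode. Per the submitters' processing notes the authors used Cell Ranger, Seurat and the mm10 build, their versions being not given in these sources. No barcode had under 2278 UMIs in the control or 3874 UMIs in the mutant library, so the deposited barcodes had a depth minimum.

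The rule at the head of the report was applied to the counts, which kept 4418 mutant and 4141 control barcodes after the filters on genes and mitochondrial UMIs. Counts were summed over a class and divided by its total to give CPM. A ratio is mutant over control, with an exact conditional binomial interval, and a share has a Clopper-Pearson interval. A gene counts as tested with at least 30 UMIs and as called at 2-fold. A gene at 0 takes 3 counts over the class as its floor. Car4-high means the same endothelial criteria with at least 4 UMIs over Car4, Ednrb, Fibin and Apln, and more than over the Plvap genes. Thinning left out no cell. Doublets were not removed in the main values, and Scrublet (scanpy 1.11.5, expected rate 3.5%) marked 90 of 4418 mutant (2.04%) and 101 of 4141 control cells (2.44%). Python 3.11.15, numpy 2.4.6, scipy 1.17.1, scikit-learn 1.9.0 and edgeR 4.0.16 were used, edgeR for TMM factors only. Coordinates come from GENCODE M21. Code was tested on simulated data.

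The cells, the 32 gene lists and the alternatives were chosen with earlier results of these data known. Genes were named by rule: per list the 2 with the highest CPM and the 2 with the largest ratio, over all genes the 10 largest and 10 smallest ratios with at least 50 UMIs and 100 CPM, without genes that differ in every class, and 25 genes of the contrast with Car4-high cells. Further genes were named for their role after values were seen. The matrix holds no row for 2 listed symbols (Gpr116 and Lcn7). A result that rests on a withheld item is not reported here.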

Additional observations from a re-analysis of the deposited data

Results flagged for a closer look

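In 4 listed genes the ratio of mutant over control lay on opposite sides of 1 in Plvap-high and Car4-high cells, each with an interval that leaves out 1. The difference between the classes was not tested. The share of all genes that do so is not given here, so the count of 4 has no background beside it. The Car4-high values below keep mixed cells. Phlda3, a p53 target, had a ratio of 1.45 in Plvap-high cells (131 CPM in the mutant and 90.7 CPM in the control) and of 0.770 in Car4-high cells (314 CPM in the mutant and 408 CPM in the control). Flt4, a Vegf receptor, had a ratio of 0.566 in Plvap-high cells (23.6 CPM in the mutant and 41.8 CPM in the control) and of 2.05 in Car4-high cells (86.8 CPM in the mutant and 42.4 CPM in the control). Epas1, a hypoxia-inducible transcription factor, had a ratio of 0.905 in Plvap-high cells (901 CPM in the mutant and 995 CPM in the control) and of 1.32 in Car4-high cells (824 CPM in the mutant and 627 CPM in the control). Lyz2, a lysozyme gene of macrophages and alveolar type 2 cells, had a ratio of 0.791 in Plvap-high cells (159 CPM in the mutant and 201 CPM in the control) and of 2.09 in Car4-high cells (329 CPM in the mutant and 158 CPM in the control). Mixed cells carried most of the Lyz2 UMIs: without them Plvap-high cells had 14 UMIs in the mutant and 119 UMIs in the control, a ratio of 0.140 (0.0743 to 0.244), and 1 mutant cell held 102 of 229 UMIs. Flt4 had a ratio of 0.644 (0.408 to 0.999) without them.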

How the results depend on the processing

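Of 448 list medians under the alternatives 443 moved by less than their interval and 5 by more, and of the named gene ratios 1471 were close, 174 moved and 32 took the other sign. All 8 alternatives of the contrast with Car4-high cells were close. The share of Plvap-high cells among endothelial cells was 31.8% in the mutant and 45.1% in the control with the rule on thinned counts, and 45.2% in the mutant and 50.4% in the control with at least 6 UMIs over Plvap, Gpihbp1 and Aplnr. Genes past 2-fold numbered 927 higher and 396 lower with at least 10 UMIs, and 189 higher and 43 lower with at least 100 UMIs. At 1.5-fold they numbered 1434 higher and 516 lower. Subtracting free RNA gave 252 lower. The subtracted share was set from Sftpc, Sftpb, Sftpa1 and Scgb1a1 in Plvap-high cells, mixed ones included. It was 13.1% in the mutant and 4.47% in the control, and 1.76% in the mutant and 2.30% in the control without mixed cells. Cells with at most 3 cell cycle UMIs gave 152 higher and 85 lower, from 43 mutant and 93 control cells and 2920 genes, and a median of -0.012 for interferon-stimulated genes. Unthinned shares were 70.1% in the mutant and 15.5% in the control for Ntrk2, 88.5% in the mutant and 42.0% in the control for Sparcl1, and 49.0% in the mutant and 67.9% in the control for Wif1.

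Log2 ratios took the other sign as follows. In cells with at most 3 cell cycle UMIs they were Angpt2 0.12, Lrg1 -0.62, Usp1 -0.47, Ccnb2 0.70, Car8 -0.30, Sftpc 0.014, Sftpb 0.59, Hba-a2 -0.88 and Chst1 -0.88. With the rule on thinned counts they were H2-Eb1 -1.77, H2-Ab1 -0.44, Cxcl2 -4.20, Ccnb2 0.85, Higd1b -0.67, S100a8 -1.44 and S100a9 -0.12. With no UMI of Epcam, Col1a2 and Ptprc they were H2-Eb1 -2.93, Cxcl2 -0.50 and Higd1b -1.14. Without Scrublet calls they were H2-Eb1 -1.67 and Ccl21a 0.21. Without mixed cells, chosen after seeing the data, they were H2-Eb1 -2.33, Cxcl2 -0.49, Ccl21a 0.25, Higd1b -0.23, S100a8 -0.26 and Hba-a2 -0.75. Without each gene's highest cell, also chosen after seeing the data, they were H2-Eb1 -1.77 and Hba-a2 -0.77. With free RNA subtracted they were Mgp 0.35, Sftpc 0.99 and Sftpb 2.81. Sftpc and Sftpb helped to set the subtracted share, so their signs under it follow from the method. The cause was not tested. Ccl21a is at 0 in both libraries without mixed cells, and its value is that of the floor.

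No paired analysis was possible because each group is 1 library, and leaving out a replicate was not possible for the same reason.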
